A study of Mus musculus with 10 samples.

Results

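The 10 genes described here are core parts of the circadian clock: the activators Clock and Arntl (also called Bmal1), the repressors Per1, Per2, Per3, Cry1 and Cry2, the nuclear receptors Nr1d1 and Nr1d2, and the output factor Dbp. They were chosen by symbol, all 10 were found among the 18453 gene identifiers of the files, and all 10 had enough counts to be tested. The series holds 10 polyA+ RNA-seq libraries from the mouse CA3, a field of the hippocampus between the dentate gyrus and CA1. In 5 libraries the mice had received adeno-associated virus with a short hairpin RNA against Mef2c (AAV-shRNA(mef2c), here the knockdown libraries), and in 5 the same kind of virus with a scrambled hairpin (AAV-shRNA(scramble), here the scramble libraries). All libraries carry a male tag, while the protocol allows for mice of either sex, so the sex is not settled; the strain was C57BL/6J, and virus was injected into CA3 on both sides. The sources used here do not give the promoter of the hairpin, the age of the mice, or the time of day at which tissue was taken. Transcripts of many clock genes rise and fall over the day, so a difference in collection time between the groups cannot be told apart from the effect of the hairpin.

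In mammals, CLOCK and BMAL1 bind DNA together at E-boxes and switch on the Per and Cry genes, whose proteins return to the nucleus and block that activation. A second loop runs through REV-ERB proteins, encoded by Nr1d1 and Nr1d2, which repress Arntl through ROR elements. DBP is a transcription factor made under CLOCK and BMAL1 control that passes the rhythm on to other genes through D-boxes. Outside the suprachiasmatic nucleus, which sets the phase, the hippocampus carries a clock of its own, and Per1 is also induced there by neuronal activity and by glucocorticoids.

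Total counts were 15669620 to 17798090 in the knockdown libraries and 14701928 to 15637076 in the scramble libraries, without overlap (exact two-sided permutation p = 0.00794, the smallest that 5 against 5 libraries allow). The 10 clock genes had between 212 and 2973 counts per library, with the fewest for Cry1, so counting error weighs most on that gene. The labels do not tie libraries to animals, so p-values measure only the spread between these libraries, which may be technical. The targeted gene, Mef2c, had 111, 131, 121 and 163 CPM (counts scaled to library size) in knockdown libraries 1 to 4 and 286 CPM in the library labelled knockdown 5, against 166, 198, 176, 312 and 175 CPM in scramble libraries 1 to 5. Its difference did not pass the test (log2 fold change -0.34, SE 0.30, edgeR adjusted p = 0.489). The 7 CA3 pyramidal markers summed to between 688 and 885 CPM in the knockdown and between 739 and 806 CPM in the scramble libraries. Their score, in mean log2 units centred over the 10 libraries, differed widely within the knockdown group. It was 0.19, 0.11, 0.36, -0.27 and -0.32 in knockdown libraries 1 to 4 and the library labelled knockdown 5. In the scramble libraries it was -0.15 to 0.11. Of the 7, 0 passed the edgeR test, with 2 at an unadjusted p under 0.05, 2 called by DESeq2 and 1 by limma-voom. Markers of dentate granule cells summed to between 490 and 782 CPM in the knockdown and between 564 and 725 CPM in the scramble libraries. In such bulk samples, fewer cells of a type and less RNA per cell cannot be told apart.

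Of the 10 clock genes, 1 passed the edgeR quasi-likelihood test at a Benjamini-Hochberg adjusted p under 0.05 over all 14393 genes tested, namely Clock, which was lower in the knockdown libraries. The share of all tested genes called was 12.3%, with 4.66% higher and 7.61% lower, so 1 of 10 is close to the background. The 10 log2 fold changes, knockdown over scramble, lay between -0.42 and 0.21, with a median of -0.07 against 0.02 over all genes tested. Of the 10, 8 were negative, against 6796 of the 14393 genes tested. The groups of libraries did not overlap in 1 clock gene, again Clock, against 9.34% of all genes tested.

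**Figure D1:**
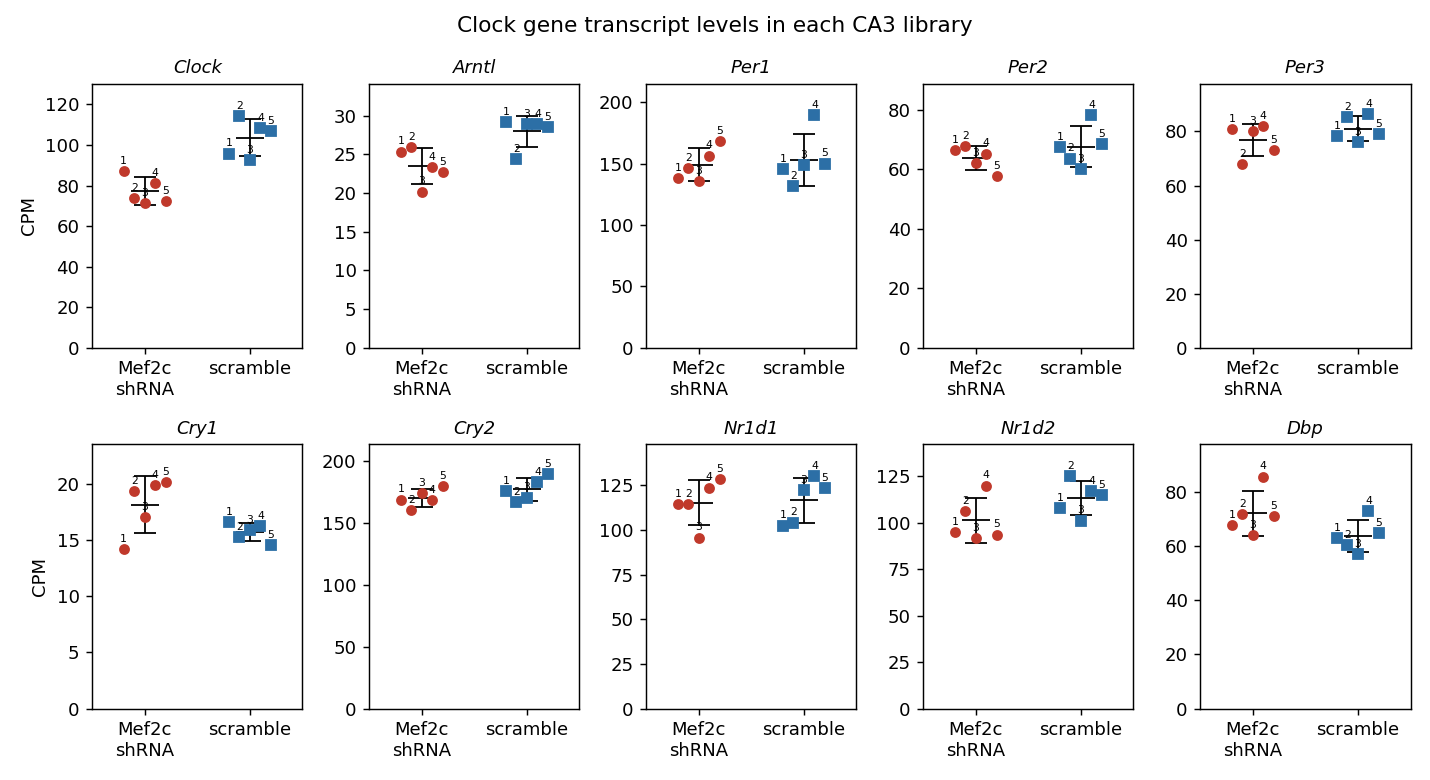
CPM of each of the 10 clock genes (vertical axes, from 0) in the 5 Mef2c shRNA libraries (circles) and the 5 scramble libraries (squares), numbered as in the labels; black bars show mean ± SD. The groups are apart for Clock, at 71.4 to 87.1 CPM in the knockdown and 92.5 to 114 CPM in the scramble libraries, and overlap for the other 9 genes.

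Clock encodes the DNA-binding partner of BMAL1 and lies on chromosome 5 (76209868 to 76304792, minus strand, GRCm38, ENSMUSG00000029238). Its level was 87.1, 73.7, 71.4, 81.4 and 72.4 CPM in knockdown libraries 1 to 4 and the library labelled knockdown 5, against 95.7, 114, 92.5, 108 and 107 CPM in scramble libraries 1 to 5. Every knockdown library, the one labelled knockdown 5 included, was below every scramble library. Clock averaged 77.2 ± 6.80 CPM in the knockdown and 104 ± 9.07 CPM in the scramble libraries (SD, n = 5 each), a fall of 25.4% (log2 fold change -0.42, SE 0.08, edgeR adjusted p = 0.00484). Leaving out any single library kept the call, with log2 fold changes between -0.47 and -0.39.

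The fall of Clock coincided with a trend along transcript length among the genes tested. The slope of a library's deviations from gene means along log2 length was -0.149 to 0.045 in the knockdown and 0.043 to 0.099 in the scramble libraries. In knockdown libraries 1 to 4 and the library labelled knockdown 5 the slopes were 0.045, -0.134, -0.070, -0.080 and -0.149. Their Clock levels, in the same order, were 87.1, 73.7, 71.4, 81.4 and 72.4 CPM. Knockdown library 1 thus lay within the scramble range of slopes. Its Clock level was the highest of the knockdown libraries and below every scramble library. The longest annotated transcript of Clock has 9744 bases, the longest among the 10 genes. Of 1696 other tested genes with transcripts within 1.5 times that length, 641 were called lower (37.8%) and 3 higher (0.177%), and their median log2 fold change was -0.27. Clock, at -0.42, lay below most of them, with 21.3% of these genes lower still. With a correction of each library for transcript length and GC content, the log2 fold change of Clock came to -0.07 (SE 0.05, edgeR adjusted p = 0.537). The corrected levels of 2 of 5 knockdown libraries lay below all scramble libraries. Knockdown library 1, at 6.50 in corrected log2 CPM, lay within the scramble range of 6.45 to 6.57. The call also ended when the microglia score entered the model (-0.32, SE 0.11, edgeR unadjusted p = 0.0124, adjusted p = 0.207). It ended too without knockdown libraries 2, 3 and 4 together (-0.38, SE 0.11, edgeR unadjusted p = 0.0047, adjusted p = 0.161). Under either setting 0 of all genes tested were called, so the loss is not particular to Clock. The 12 microglia markers summed to 436 to 916 CPM in the knockdown and 356 to 521 CPM in the scramble libraries. Of the 12, 6 were called higher, against 4.66% of all genes tested. The part of these markers in the Clock difference was not tested.

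**Figure D2:**
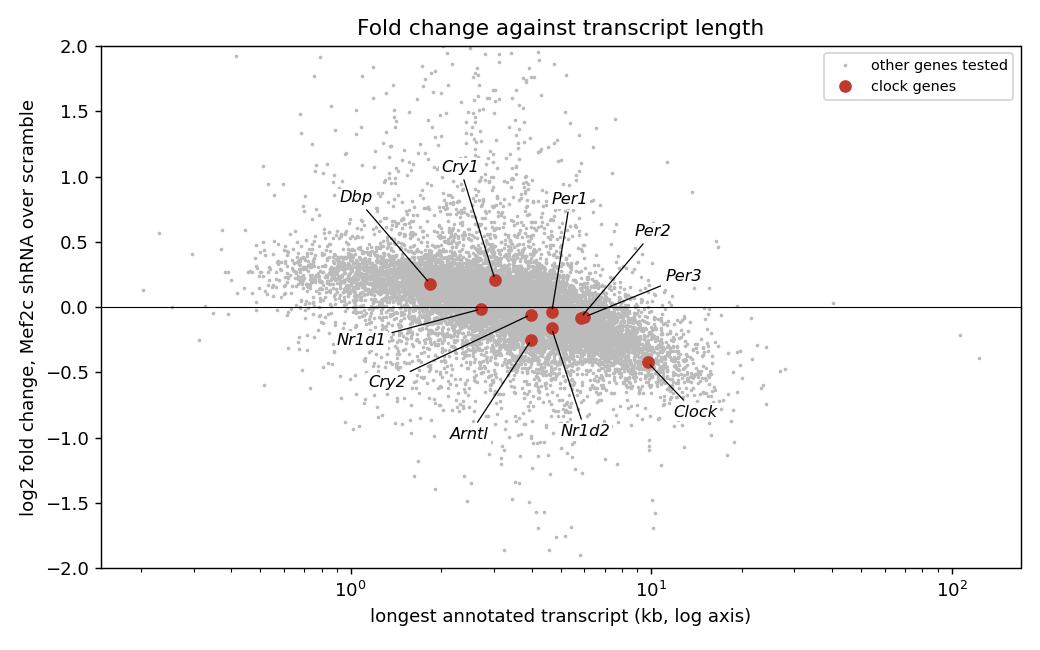
Log2 fold change, Mef2c shRNA over scramble (vertical axis), against the longest annotated transcript in kb (horizontal log axis) for all genes tested (grey) and the 10 clock genes (red, named); 49 genes beyond ± 2 are outside the axis and 12 have no length. Clock, with the longest transcript of the 10, sits lowest at -0.42, within the downward drift of long transcripts, and Dbp, with the shortest, sits at 0.18.

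Arntl encodes BMAL1 and lies on chromosome 7 (113207465 to 113314126, plus strand, GRCm38, ENSMUSG00000055116). Its values were 25.4, 25.9, 20.2, 23.4 and 22.7 CPM in knockdown libraries 1 to 4 and the library labelled knockdown 5, against 29.2, 24.4, 28.9, 28.9 and 28.5 CPM in scramble libraries 1 to 5. Of the 5 knockdown libraries, 3 were below all scramble libraries, and scramble library 2 stood apart from the other 4, within the knockdown range. Arntl averaged 23.5 ± 2.29 CPM in the knockdown and 28.0 ± 2.03 CPM in the scramble libraries (SD, n = 5 each) and narrowly missed the threshold (log2 fold change -0.25, SE 0.09, 95% interval -0.43 to -0.07, unadjusted p = 0.0108, edgeR adjusted p = 0.0688). It passed without knockdown library 1 (-0.28, edgeR adjusted p = 0.0384) and with limma-voom and sample weights (-0.27, adjusted p = 0.0278). The correction for length and GC content left its log2 fold change at -0.21 (SE 0.08, edgeR adjusted p = 0.198), in contrast to that of Clock. Its corrected levels in 2 of 5 knockdown libraries lay below all scramble libraries, the same count as for Clock. Of 7562 genes of like transcript length, 11.1% had a lower log2 fold change than Arntl.

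The Arntl promoter is known for the ROR elements through which REV-ERB and ROR proteins set its rhythm. In 1 of the 2 RefSeq promoter windows of Arntl (250 bases before to 50 after a start site, GRCm38.p6), the core letters TAGGTCA of that element lie at positions 31 to 37 after the start. The stretch around it is shown with the core in capitals (chr7:113207530-113207558, plus strand).
Arntl ROR element core: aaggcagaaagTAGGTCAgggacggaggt
These letters, searched on both strands, are present in 2.61% of all 32851 RefSeq promoter windows of that length. A match describes the letters only, here and for the other elements. The windows of 9 of the 10 genes, all but Per2, were searched for the E-box (CACGTG) and its variant (CACGTT), for the D-box as TTATGTAA or as TTACGTAA, for the ROR core as TAGGTCA or as TGGGTCA, for the cAMP response element (TGACGTCA) and for the MEF2 element. The variant E-box was found in windows of Cry1, Cry2 and Nr1d1, and in 4.68% of all windows. No searched element was found in the windows of Clock, Nr1d2 and Dbp.

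Of the 2 paralogs of the activators, 0 passed by edgeR, with 1 at an unadjusted p under 0.05, while DESeq2 and limma-voom each called 1. Npas2, which can stand in for CLOCK in the forebrain, averaged 22.8 ± 10.2 CPM in the knockdown and 25.8 ± 2.00 CPM in the scramble libraries (SD, n = 5 each). It ranged from 13.9 to 22.3 CPM in knockdown libraries 1 to 4, and it reached 40.2 CPM in the library labelled knockdown 5, which exceeded every scramble library. Arntl2, the paralog of Arntl, averaged 12.7 ± 1.70 CPM in the knockdown and 16.2 ± 1.68 CPM in the scramble libraries (SD, n = 5 each; log2 fold change -0.36, SE 0.11, edgeR adjusted p = 0.0525). After the length and GC correction it stood at -0.38 (SE 0.12, edgeR adjusted p = 0.123).

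The Per genes, whose proteins form the core of the repressor complex, did not pass. Per1 (chromosome 11, 69095217 to 69109960, plus strand, ENSMUSG00000020893) had 138, 146, 136, 157 and 168 CPM in knockdown libraries 1 to 4 and the library labelled knockdown 5, against 146, 132, 149, 189 and 150 CPM in scramble libraries 1 to 5. The groups overlapped fully, and the highest library of each group was the one with the most Mef2c, the library labelled knockdown 5 and scramble library 4. The log2 fold change of Per1 was -0.04 (SE 0.09, 95% interval -0.23 to 0.16, edgeR adjusted p = 0.817). Those same libraries had the highest immediate early gene score of their groups, 0.36 in the library labelled knockdown 5 and 0.58 in scramble library 4, in mean log2 units centred over the 10 libraries. Their scores of cortical neuron markers were likewise the highest, at 0.51 in the library labelled knockdown 5 and 0.43 in scramble library 4. The part of either in the Per1 level was not tested.

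Per1 has 2 RefSeq promoter windows, and they differ in the elements they hold. The first has an E-box, the CLOCK and BMAL1 site CACGTG, at positions -166 to -161. The second has a match to the MEF2 element, the site bound by the family of the targeted factor, at positions -15 to -6. Both stretches are shown, with the element in capitals, since Per1 is the only one of the 9 matched genes with a MEF2 element in these windows (chr11:69098743-69098828 and chr11:69100097-69100151, both plus strand, GRCm38.p6).
Per1 E-box: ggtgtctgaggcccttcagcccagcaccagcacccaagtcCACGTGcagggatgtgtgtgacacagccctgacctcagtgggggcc
Per1 MEF2 element: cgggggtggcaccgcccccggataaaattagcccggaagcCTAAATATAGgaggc
The E-box letters are present in 7.15% and the MEF2 element in 3.19% of all RefSeq promoter windows. Counts per gene do not separate transcripts from the 2 starts.

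Per2 (chromosome 1, 91415982 to 91459324, minus strand, ENSMUSG00000055866) is the Per gene most needed for behavioural rhythms in mice. Its values were 66.6, 67.8, 62.2, 65.3 and 57.9 CPM in knockdown libraries 1 to 4 and the library labelled knockdown 5, against 67.6, 63.7, 60.1, 78.3 and 68.5 CPM in scramble libraries 1 to 5. The ranges overlapped, with scramble library 4 highest and the library labelled knockdown 5 lowest of all 10. The log2 fold change was -0.08 (SE 0.08, 95% interval -0.24 to 0.08, edgeR adjusted p = 0.503).

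Per3 (chromosome 4, 151003652 to 151044665, minus strand, ENSMUSG00000028957), the paralog least needed for the rhythm in mice, was among the steadier genes. It had 80.9, 68.1, 80.2, 82.0 and 73.2 CPM in knockdown libraries 1 to 4 and the library labelled knockdown 5, against 78.2, 85.4, 76.2, 86.3 and 79.0 CPM in scramble libraries 1 to 5. Only knockdown library 2 and the library labelled knockdown 5 were below all scramble libraries. The log2 fold change was -0.08 (SE 0.07, 95% interval -0.22 to 0.07, edgeR adjusted p = 0.475), and after the length and GC correction it was 0.05 (SE 0.06). The promoter of Per3 is shown because it holds 2 copies of the D-box TTATGTAA, the site of DBP and its relatives, starting at positions -205 and -158, 47 bases apart (chr4:151044796-151044890, minus strand, GRCm38.p6, D-boxes in capitals).
Per3 D-boxes: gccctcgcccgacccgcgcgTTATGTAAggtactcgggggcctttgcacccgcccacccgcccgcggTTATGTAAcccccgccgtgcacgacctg
These letters occur in 0.938% of all RefSeq promoter windows, and Per3 was the only one of the 9 matched clock genes to have them.

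The cryptochromes, the other component of the repressor complex, had fold changes of opposite sign, and neither passed. Cry1 (chromosome 10, 85131700 to 85185064, minus strand, ENSMUSG00000020038), the stronger repressor, had 14.2, 19.4, 17.1, 19.9 and 20.2 CPM in knockdown libraries 1 to 4 and the library labelled knockdown 5, against 16.6, 15.3, 15.9, 16.2 and 14.6 CPM in scramble libraries 1 to 5. Knockdown library 1 was the lowest of all 10, and the other 4 knockdown libraries were above all scramble libraries. Cry1 averaged 18.1 ± 2.53 CPM in the knockdown and 15.7 ± 0.803 CPM in the scramble libraries (SD, n = 5 each; log2 fold change 0.21, SE 0.10, 95% interval -0.01 to 0.43, edgeR adjusted p = 0.192). Without knockdown library 1 it passed, at 0.29 (SE 0.09, edgeR adjusted p = 0.0314), and with the length and GC correction it was 0.13 (SE 0.10, edgeR adjusted p = 0.556). Cry1 has an E-box at positions -60 to -55 of its promoter, shown in capitals (chr10:85185069-85185154, minus strand, GRCm38.p6).
Cry1 E-box: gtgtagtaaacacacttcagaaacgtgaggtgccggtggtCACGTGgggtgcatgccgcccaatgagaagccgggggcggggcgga

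Cry2 (chromosome 2, 92403646 to 92434043, minus strand, ENSMUSG00000068742) had the smallest spread of the 10 genes in the knockdown libraries, with a coefficient of variation of 4.25% there and 5.14% in the scramble libraries. Its values were 169, 160, 174, 168 and 179 CPM in knockdown libraries 1 to 4 and the library labelled knockdown 5, against 176, 167, 170, 183 and 189 CPM in scramble libraries 1 to 5. The ranges overlapped in most libraries, and the log2 fold change was -0.06 (SE 0.06, 95% interval -0.18 to 0.06, edgeR adjusted p = 0.524).

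Nr1d1 (chromosome 11, 98767932 to 98775333, minus strand, ENSMUSG00000020889) encodes REV-ERB alpha. It had 114, 115, 95.7, 124 and 128 CPM in knockdown libraries 1 to 4 and the library labelled knockdown 5, against 102, 104, 122, 130 and 124 CPM in scramble libraries 1 to 5. The groups overlapped and their means were nearly equal, at 115 ± 12.5 CPM in the knockdown and 117 ± 12.5 CPM in the scramble libraries (SD, n = 5 each; log2 fold change -0.01, SE 0.09, 95% interval -0.20 to 0.18, edgeR adjusted p = 0.932). With the length and GC correction it was -0.15 (SE 0.08, edgeR adjusted p = 0.363). Nr1d1 shares 263 exonic bases, 8.55% of its merged exons, with Thra on the opposite strand, a thyroid hormone receptor gene at 828 ± 89.1 CPM in the knockdown and 750 ± 47.8 CPM in the scramble libraries (SD, n = 5 each). Whether counting used strand is not given, so reads in the shared stretch cannot be assigned with certainty.

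Nr1d2 (chromosome 14, 18204054 to 18239127, minus strand, ENSMUSG00000021775) encodes REV-ERB beta. Its level was 94.8, 106, 91.5, 120 and 93.5 CPM in knockdown libraries 1 to 4 and the library labelled knockdown 5, against 108, 125, 101, 117 and 115 CPM in scramble libraries 1 to 5. Of the knockdown libraries 3 were below all scramble libraries, while knockdown library 4 was above all but scramble library 2. The log2 fold change was -0.16 (SE 0.08, 95% interval -0.34 to 0.02, edgeR adjusted p = 0.208), and with the correction it was -0.07 (SE 0.07).

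Dbp (chromosome 7, 45705088 to 45710203, plus strand, ENSMUSG00000059824), the output factor, had 67.8, 71.7, 64.1, 85.6 and 70.9 CPM in knockdown libraries 1 to 4 and the library labelled knockdown 5, against 63.0, 60.2, 57.2, 72.8 and 64.8 CPM in scramble libraries 1 to 5. Knockdown library 4 was above all scramble libraries, and scramble library 4 was the highest of its group. Dbp averaged 72.0 ± 8.17 CPM in the knockdown and 63.6 ± 5.92 CPM in the scramble libraries (SD, n = 5 each; log2 fold change 0.18, SE 0.08, 95% interval -0.00196 to 0.36, edgeR adjusted p = 0.171). Its transcript is the shortest of the 10, at 1837 bases, and after the length and GC correction it stood at -0.04 (SE 0.09, edgeR adjusted p = 0.868). Of 4045 genes of like length, 9.37% were called higher and 0.717% lower. Dbp shares 539 exonic bases, 18.01% of its merged exons, with Sphk2 on the opposite strand, a sphingosine kinase gene at 31.1 ± 3.35 CPM in the knockdown and 29.7 ± 3.43 CPM in the scramble libraries (SD, n = 5 each).

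**Figure D3:**
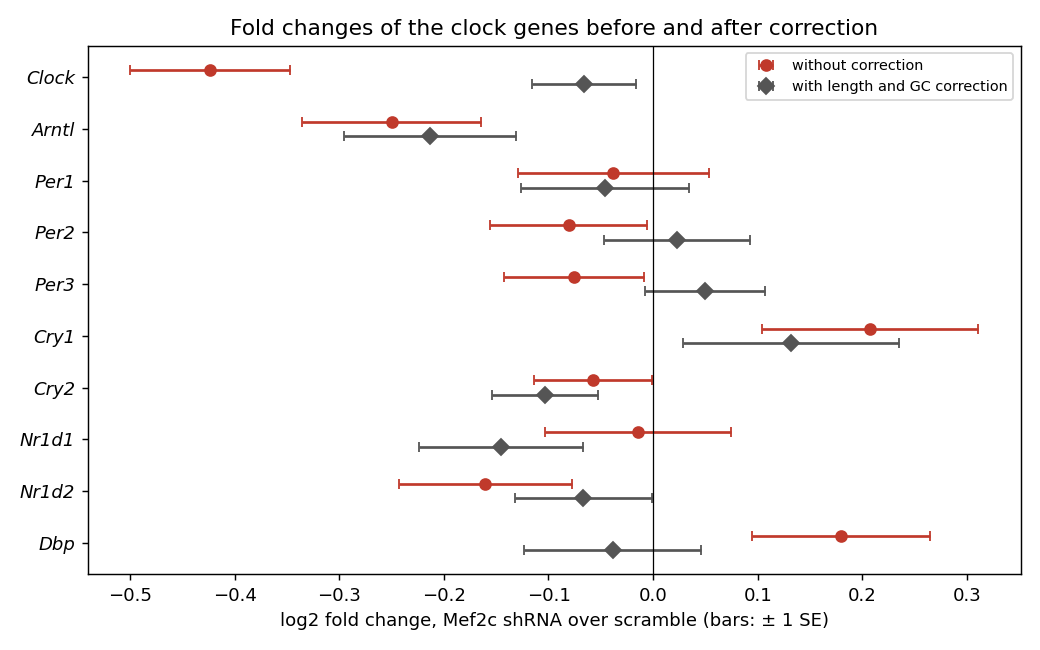
Log2 fold change, Mef2c shRNA over scramble, of the 10 clock genes without correction (circles) and with each library corrected for transcript length and GC content (diamonds); bars are ± 1 SE. Clock moves from -0.42 to -0.07 and Dbp from 0.18 to -0.04 with the correction, while Arntl stays at -0.25 and -0.21.

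Dbp and Arntl peak at nearly opposite times of day in mouse tissues, so their ratio within a library is a common readout of clock phase. The log2 ratio of Dbp to Arntl CPM was 1.42, 1.47, 1.67, 1.87 and 1.64 in knockdown libraries 1 to 4 and the library labelled knockdown 5, against 1.11, 1.31, 0.98, 1.33 and 1.18 in scramble libraries 1 to 5. All 5 knockdown libraries were above all scramble libraries, with means of 1.61 ± 0.18 in the knockdown and 1.18 ± 0.14 in the scramble libraries (SD, n = 5 each). The ratio was chosen after its members' values were known and carries no test. With the length and GC correction it averaged 1.48 ± 0.19 in the knockdown and 1.31 ± 0.21 in the scramble libraries (SD, n = 5 each), and 2 of 5 knockdown libraries were above all scramble libraries. The transcripts of the genes differ in length, at 1837 bases for Dbp and 3995 bases for Arntl.

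**Figure D4:**
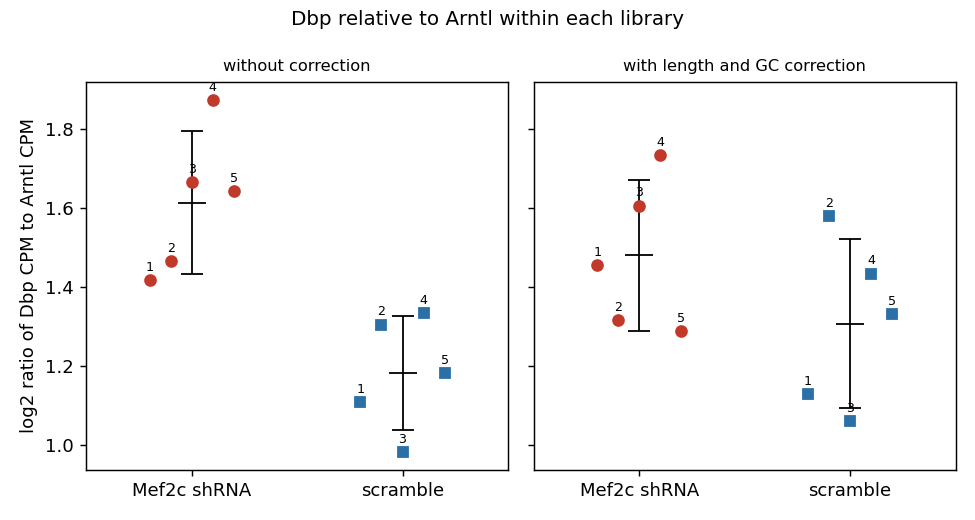
Log2 ratio of Dbp CPM to Arntl CPM (vertical axis, not from 0) in each of the 5 Mef2c shRNA libraries (circles) and 5 scramble libraries (squares), without correction (left) and with the length and GC correction (right); black bars show mean ± SD. Without correction the groups are apart, at 1.42 to 1.87 in the knockdown and 0.98 to 1.33 in the scramble libraries, and with it they overlap.

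Levels were compared between genes as CPM per kb of merged exons. Nr1d1 was the highest, at 37.5 ± 4.06 in the knockdown and 37.9 ± 4.07 in the scramble libraries (SD, n = 5 each). Its groups were apart from those of Cry2, the next in order, while the highest scramble library of Per1, at 33.6, passed the lowest of Nr1d1, at 33.3. Cry2, Per1, Dbp and Nr1d2 followed, with means of 26.9, 26.5, 24.1 and 18.7 CPM per kb in the knockdown and 28.0, 27.2, 21.2 and 20.9 CPM per kb in the scramble libraries, and neighbours in this order overlapped in both groups. Per2 came next, at 10.9 ± 0.682 in the knockdown and 11.6 ± 1.17 CPM per kb in the scramble libraries (SD, n = 5 each), apart from its neighbours. Per3 and Clock did not overlap in the knockdown libraries, at means of 7.999 and 5.62 CPM per kb, and overlapped in the scramble libraries, at means of 8.43 and 7.54 CPM per kb. Clock and Cry1 overlapped in the knockdown libraries, where Cry1 stood at 5.43 ± 0.757 CPM per kb, and were apart in the scramble libraries, where it stood at 4.71 ± 0.241 CPM per kb (SD, n = 5 each). Arntl was the lowest in both groups, at 3.12 ± 0.304 in the knockdown and 3.72 ± 0.270 CPM per kb in the scramble libraries (SD, n = 5 each).

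Within groups, several of the genes shared their high and low libraries. In scramble library 4 all 10 genes were above their group mean on the log2 scale, and in knockdown library 4 this held for 8 of 10, with Cry2 and Arntl just below. In knockdown library 3, 8 of 10 were below the group mean. Per1 and Nr1d1 lay on the same side of their group means in 8 of 10 libraries, as did Per1 and Dbp, and Nr1d2 and Dbp. The same count held for Nr1d1 and Dbp, Clock and Dbp, Clock and Nr1d2, and Per3 and Clock. With Per2 and Arntl, these are the highest counts among all pairs of the 10 genes. The other pairs shared a side in 3 to 7 of 10 libraries. Such counts were not taken for pairs of other genes, so no background stands beside them. Arntl shared its side with Per2 in 8 of 10 libraries and with Per1 and Per3 in 3 of 10 each. The correlations of its deviations with theirs were 0.43 for Per2, 0.32 for Per1 and -0.46 for Per3. Arntl thus had no common relation to the Per genes, and for Per1 the count and the correlation differed in direction. Among 11683 genes with at least 5 CPM on average, the pattern most like that of Dbp, after removal of group means, was that of Pcgf6 (r = 0.92), Arc (r = 0.92), Riok3 (r = 0.90), Gucy2g (r = 0.89) and Selenon (r = 0.89), over 10 libraries. For Arntl it was that of Slc27a4 (r = 0.94), Swsap1 (r = 0.91), E2f4 (r = 0.90), Nck1 (r = 0.90) and Cndp2 (r = 0.89). These correlations are the highest of many over shared libraries and describe these libraries only.

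**Figure D5:**
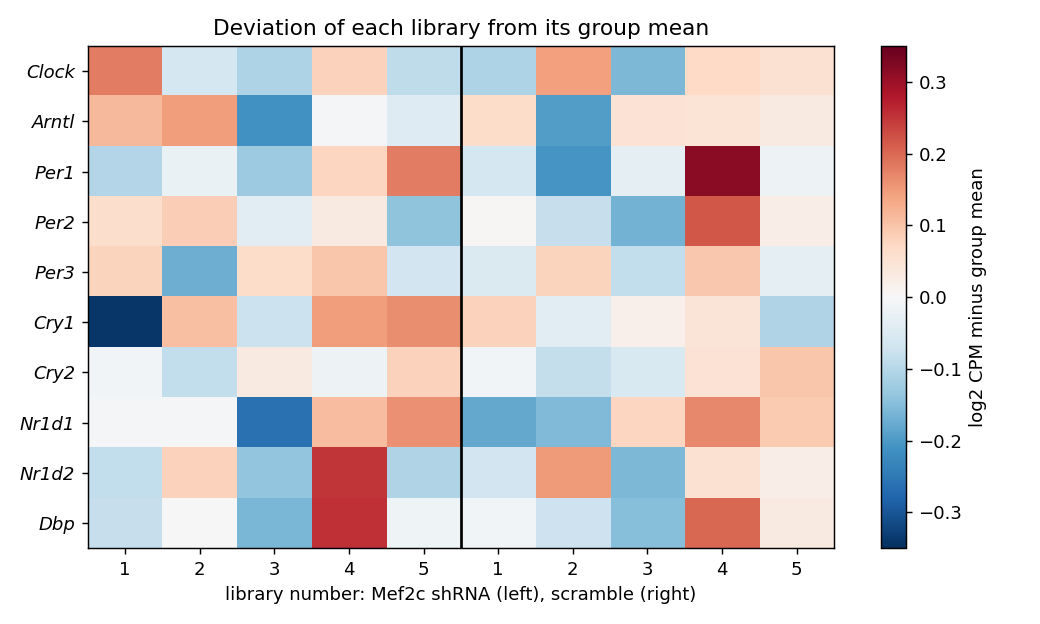
Deviation of each library's log2 CPM from the mean of its own group for the 10 clock genes, with Mef2c shRNA libraries 1 to 5 on the left and scramble libraries 1 to 5 on the right; red is above and blue below the group mean. Scramble library 4 is above its group mean in all 10 genes, and Cry1 in knockdown library 1 is the lowest value, at -0.34.

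Of 25 other genes of the clock pathway, 3 fell and 0 rose, with a median log2 fold change of -0.01 over the 25. Over all genes tested 7.61% were lower and 4.66% higher, 12.3% in all, so 3 of 25 is close to the background. Rora, which activates Arntl through the same ROR elements that REV-ERB proteins use, fell to 32.2 ± 4.36 CPM in the knockdown libraries, against 43.9 ± 8.32 CPM in the scramble libraries (SD, n = 5 each; log2 fold change -0.45, SE 0.13, edgeR adjusted p = 0.0420). Gsk3b, a kinase of several clock proteins, fell to 176 ± 15.5 CPM in the knockdown libraries, against 223 ± 16.9 CPM in the scramble libraries (SD, n = 5 each; -0.34, SE 0.07, edgeR adjusted p = 0.0117). Btrc, a ubiquitin ligase subunit that marks PER proteins for degradation, fell to 80.2 ± 9.80 CPM in the knockdown libraries, against 98.9 ± 5.45 CPM in the scramble libraries (SD, n = 5 each; -0.30, SE 0.08, edgeR adjusted p = 0.0274). With the length and GC correction the log2 fold changes were -0.05 for Rora, -0.03 for Gsk3b and -0.20 for Btrc, and 0 of the 25 were called by edgeR, against 1.65% of all genes tested, with 3 of the 25 at an unadjusted p under 0.05. Gsk3b kept its call without any single library. Rora lost it without knockdown library 2, 3 or 4 or scramble library 2, 4 or 5 (edgeR adjusted p up to 0.112), and Btrc without knockdown library 2 or 4 or scramble library 2, 4 or 5 (edgeR adjusted p up to 0.0793).

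The nearest relatives of Dbp, Tef and Hlf, bind the same D-boxes and did not pass. Tef averaged 391 ± 15.9 CPM in the knockdown and 394 ± 24.7 CPM in the scramble libraries (SD, n = 5 each), with a log2 fold change of -0.01 (SE 0.06). Hlf had a log2 fold change of -0.16 (SE 0.12). The repressors Bhlhe40, Bhlhe41 and Ciart stood at log2 fold changes of 0.16 (SE 0.09), 0.12 (SE 0.10) and -0.03 (SE 0.20). The casein kinases Csnk1d and Csnk1e, which phosphorylate PER proteins, stood at -0.01 (SE 0.06) and 0.03 (SE 0.07).

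Of 8 genes that cycle in many mouse organs, Tspan4 rose (log2 fold change 0.34, SE 0.10, edgeR adjusted p = 0.0415), and the median of the 8 was 0.16; 1 of 8 is close to the 12.3% of all genes that were called. After the length and GC correction Tspan4 stood at 0.13 (SE 0.09), and its call was lost without any of 7 single libraries, knockdown 2, 3 or 4 or scramble 1, 2, 4 or 5 (edgeR adjusted p up to 0.102). Of 11 immediate early genes 0 passed by edgeR, by DESeq2 or by limma-voom, and 0 had an unadjusted p under 0.05, with a median log2 fold change of -0.20, and their summed level was 437 to 739 CPM in the knockdown and 528 to 910 CPM in the scramble libraries. Of 11 glucocorticoid-responsive genes, Mt2, a metallothionein, rose (1.08, SE 0.32, edgeR adjusted p = 0.0473). Zbtb16, a zinc finger transcription factor, fell (-0.75, SE 0.18, edgeR adjusted p = 0.0280), and the median over the 11 was 0.17. By edgeR 6 of the 11 had an unadjusted p under 0.05, and DESeq2 and limma-voom each called 4. After the length and GC correction Mt2 stood at 0.74 (SE 0.30, edgeR adjusted p = 0.225) and Zbtb16 at -0.71 (SE 0.16, edgeR adjusted p = 0.0555). Mt2 lost its call in all but 2 of the 10 fits that left out a library, those without knockdown library 1 and scramble library 1 (edgeR adjusted p up to 0.111), and Zbtb16 kept its call in 3 of the 10, those without knockdown library 1, knockdown library 3 or scramble library 3 (edgeR adjusted p up to 0.0703). Fkbp5, a cochaperone of the glucocorticoid receptor, and Tsc22d3 did not pass, at 0.26 (SE 0.09, edgeR adjusted p = 0.0613) and -0.01 (SE 0.09).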

How the data were processed

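The files hold raw counts per gene, deposited by the authors without normalization; HISAT2, featureCounts and the mm10 build are named in the submitters' processing notes, and the sources used here do not give versions, annotation or strandedness. Symbols, coordinates and lengths came from GENCODE M21 (GRCm38), which holds 18445 of the 18453 identifiers. The test was the robust quasi-likelihood test of edgeR 4.0.16 under R 4.3.3 (default filterByExpr filter, TMM scaling, knockdown against scramble). The SE is the log2 fold change divided by the square root of F. The 95% intervals use the total degrees of freedom of that test, residual plus prior. CPM are scaled to TMM library sizes, with a prior count of 2 on the log2 scale. The length and GC correction fits natural splines with 5 degrees of freedom to each library's deviations from gene means and enters them as offsets. Promoters came from the RefSeq table (GRCm38.p6); 9 of 10 genes matched, with 13 windows. The pipeline was tested on simulated data with the same dispersion for every gene and no length or GC trend. That test therefore does not cover the length trend of these libraries. The alternatives used limma 3.58.1, DESeq2 1.42.0 and sva 3.50.0. Named were the 10 genes, Mef2c, other clock genes that passed or averaged at least 20 CPM, genes past the threshold in other lists, and the 5 genes most like Dbp and Arntl; Arntl2, Ciart, Fkbp5 and Tsc22d3 were added after their values were seen. The genes, lists and alternatives were chosen with earlier results of these data known.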

Additional observations from a re-analysis of the deposited data

Results flagged for a closer look

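Among 20 combinations of a clock gene and a group, 1 library stood far from the others by Dixon's criterion for 5 values: Arntl in scramble library 2, at 24.4 CPM, with the nearest scramble library at 28.5 CPM. About 1 in 20 such groups is marked by chance. Without that library the Arntl log2 fold change was -0.30 (edgeR adjusted p = 0.0633).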

How the results depend on the processing

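Of the 10 clock genes, 1 was called; the count was 2 with limma-voom and sample weights and at an adjusted p under 0.1, and 0 with the length and GC correction (1 at an unadjusted p under 0.05), with the microglia score in the model (1 at an unadjusted p under 0.05) and without knockdown libraries 2, 3 and 4 (2 at an unadjusted p under 0.05). Leaving out single libraries gave 1 to 3, the 3 without knockdown library 1. Of the 25 other clock genes, 3 were called; the count was 5 with limma-voom and with the cortical score (1 of those higher), 1 with 1 surrogate variable, 0 at an adjusted p under 0.01, and 0 under the same 3 settings that gave 0 above (edgeR, with 3, 4 and 2 at an unadjusted p under 0.05); leaving out single libraries gave 1 to 5. Of all genes, 1766 were called, against 3393 with limma-voom, 754 with 1 surrogate variable, 238 with the length and GC correction, 2678 with the cortical score, 1029 without scramble library 4 and the library labelled knockdown 5, 379 at an adjusted p under 0.01 and 3106 under 0.1; edgeR gave 0 with the microglia score (2497 at an unadjusted p under 0.05) and 0 without knockdown libraries 2, 3 and 4 (2590), and leaving out single libraries gave 631 without scramble library 2 to 3305 without knockdown library 1. The cause of these differences was not tested.

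The log2 fold changes of some clock genes changed sign between alternatives. Per1 stood at 0.034 with 1 surrogate variable, 0.087 with the microglia score, 0.011 with the cortical score, 2.75e-05 without scramble library 4 and the library labelled knockdown 5, and -0.088 to 0.0495 without single libraries. Nr1d1 stood at 0.037 with 1 surrogate variable, 0.103 with the microglia score, 0.025 with the cortical score, 0.053 without knockdown libraries 2, 3 and 4, and -0.061 to 0.041 without single libraries. Per2 stood at 0.023 with the length and GC correction and 0.0088 without scramble library 4 and the library labelled knockdown 5. With the length and GC correction Per3 stood at 0.0498 and Dbp at -0.039. The value of Arntl was negative under all 21 alternatives, from -0.30 to -0.19, and that of Clock likewise, with a call in 18 of the 21. Cry2 and Nr1d2 were also negative, and Cry1 positive, under all 21.

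Libraries with the same number did not deviate together in every pair (correlations of 0.24, 0.18, 0.40, -0.11 and 0.08 for numbers 1 to 5). Only knockdown library 3 and scramble library 1 correlated best with their own number in the other group. The numbers were therefore not taken to pair the libraries. With the replicate block, 1 of the 10 clock genes, 2 of the 25 others and 1313 of all genes were called. With 212 to 2973 counts per clock gene and library, depth limits Cry1 most.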

Other observations

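Markers of other cell types were counted as a description of the tissue in these libraries. Of 8 astrocyte markers, Aldh1l1 rose and Slc1a2 fell, of 6 endothelial markers Cldn5 and Ly6c1 rose, and of 6 inhibitory neuron markers Gad2 fell (edgeR, adjusted p under 0.05). Over all genes tested, 12.3% were called. Of 10 interferon-stimulated genes, Rtp4 and Ifi27 rose by edgeR, with 6 at an unadjusted p under 0.05, and DESeq2 and limma-voom each called 5. All 10 had a positive log2 fold change, with a median of 1.77, but the rise was not shared by all knockdown libraries. The list score, in mean log2 units centred over the 10 libraries, was 1.85, 1.54 and 1.72 in knockdown libraries 2 to 4. Knockdown library 1, at 0.32, lay between scramble libraries 2 and 3, at 0.06 and 0.40. The library labelled knockdown 5 stood at -1.40, against -1.565, -1.37 and -1.55 in scramble libraries 1, 4 and 5. The interferon list summed to 72.5 to 471 CPM in the knockdown and 61.8 to 188 CPM in the scramble libraries. Of 8 oligodendrocyte, 8 dentate granule, 5 CA1 pyramidal, 10 cortical and 6 choroid plexus markers, edgeR called 0, with 1, 1, 1, 0 and 0 at an unadjusted p under 0.05, and DESeq2 and limma-voom each called 1 dentate granule and 1 CA1 marker and 0 of the others. The choroid plexus markers summed to 48.5 to 2776 CPM in the knockdown and 69.9 to 1985 CPM in the scramble libraries, a wide range within both groups. The part of these lists in the clock gene levels was not tested.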
